A study of Mus musculus with 28 samples.

Results

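Acetylation of histones H2B and H3 was described at 10 genes of the Nodal and bone morphogenetic protein (BMP) pathways in mouse embryonic stem cells (mESCs): Nodal, Lefty1, Lefty2, Tdgf1, Smad7, Skil, Bambi, Id1, Id2 and Id3. A region was assigned to the protein-coding gene whose transcription start site was nearest to its centre, if that site lay within 50 kb. By this rule 79 of 127646 deposited regions belonged to the 10 genes, from 4 for Tdgf1 to 18 for Smad7, and each gene's level was the mean of its regions in each group, with a missing value taken as 0. Of the 79 regions, 13 had their centre within 1 kb of the start site, called proximal here, and 66 were distal.

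All samples came from mESCs with an inducible FOXD3 knockout (FOXD3-iKO), grown in L2i medium, with 24 h given as the treatment time. The study set cells in which FOXD3, a forkhead transcription factor, was depleted with 4-hydroxytamoxifen (4HT) against cells given the solvent, and profiled active chromatin by CUT&Tag, in which an antibody tethers a transposase to chromatin that carries a mark. Of the 28 samples, 4 gave H3K27ac in asynchronous cells, 2 of them treated with EtOH (the solvent) and 2 with 4HT, and 12 gave H2BK120ac, 3 for each code of ED, ET, TD or TT. The labels do not explain the letters of these codes, so the codes are kept, and which of them, if any, marks FOXD3 depletion is not known here. The deposited H2BK120ac coverage is also labelled async, as the H3K27ac coverage is, and trp, which is not explained. Whether the codes stand for a further treatment is therefore not known here either. The groups whose code begins with T are called T-first and the others E-first. The remaining 12 samples, sorted by phase, were not analysed here.

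Each group had 1 column of coverage normalized to sequencing depth (the CPM scale), in which its replicates were merged, so that no spread between replicates could be computed and no test was run. Genes and regions were instead called by size, at 2-fold or more on the log2(value + pseudocount) scale, with pseudocounts of 0.4 for H2BK120ac and 0.2 for H3K27ac, which understates the change of low values. The intervals given are 95% Clopper-Pearson counting intervals on the ratio of pile-up, which is coverage in units of the value read as 1 fragment. Fragment numbers given here are this pile-up, averaged within a region and summed over a gene's regions, and not counts of fragments. The average appears to be over covered bases only, because no H3K27ac value lay below that of 1 fragment. A wide region can therefore hold more fragments than its pile-up, and a partly covered region is not marked by a lower value. These intervals treat pile-up as a count and cover counting error only. Those for gene levels are too narrow where neighbouring regions share fragments. Reading the commonest value of a column as 1 fragment gave implied depths of 2.25 to 2.43 M fragments for the H2BK120ac columns and 4.82 and 6.08 M for the H3K27ac columns, and the lowest H2BK120ac values were 0.25 of that unit. If that lowest value were 1 fragment, the H2BK120ac intervals given here would be too wide. The 10 mESC marker genes, such as Pou5f1 and Nanog, had median levels at percentiles 86.3 to 90.7 of all genes in the 6 columns with none at 0, against 16 to 32.4 for 10 markers of fibroblast feeder cells, of which Dcn was at 0 in all 6. Medians for 8 primitive endoderm genes lay at percentiles 20.9 to 55.5, for 6 mesendoderm genes at 24.3 to 38.7 and for 6 trophectoderm genes at 44.6 to 79.3. The labels could not be checked at Foxd3 itself, where the 2 regions inside the gene held at most 1.96 fragments in any column.

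Nodal is a secreted ligand of the transforming growth factor beta family that signals through activin receptors with the co-receptor Tdgf1 (Cripto) to the transcription factors SMAD2 and SMAD3, which act with FOXH1. Its targets include Nodal itself and the secreted antagonists Lefty1 and Lefty2, so that the pathway holds both positive and negative feedback. BMP ligands signal through SMAD1 and SMAD5 to the Id genes, whose products bind and inactivate basic helix-loop-helix factors. In mouse embryonic stem cells BMP signals and Id proteins are known for holding back neural differentiation, and Nodal signals for their part in the exit from the naive state and in the formation of mesoderm and endoderm.

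The upstream sequence of 3 members is shown because a deposited proximal region lies over it. Of the 10 members, 4 (Id3, Tdgf1, Nodal and Id2) matched the promoter sequences of RefSeq on GRCm38.p6, the mm10 assembly, and the 250 bases before the annotated start site are given 5′ to 3′ on the gene's strand. For Id3 (chr4:136143572-136143821, plus strand) and Tdgf1 (chr9:110946159-110946408, minus strand) capitals mark the bases that lie inside a deposited region, 183 and 101 of 250. The Id2 sequence (chr12:25096093-25096342, minus strand) lies inside a region over all 250 bases, and its capitals mark the only motif match found.
Id3: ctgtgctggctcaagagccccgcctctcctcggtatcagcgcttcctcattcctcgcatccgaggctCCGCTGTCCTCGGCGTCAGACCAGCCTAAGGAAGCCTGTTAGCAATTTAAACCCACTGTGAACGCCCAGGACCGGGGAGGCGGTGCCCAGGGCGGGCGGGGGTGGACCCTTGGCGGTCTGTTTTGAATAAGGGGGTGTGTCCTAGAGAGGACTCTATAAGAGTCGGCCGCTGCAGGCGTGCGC
Tdgf1: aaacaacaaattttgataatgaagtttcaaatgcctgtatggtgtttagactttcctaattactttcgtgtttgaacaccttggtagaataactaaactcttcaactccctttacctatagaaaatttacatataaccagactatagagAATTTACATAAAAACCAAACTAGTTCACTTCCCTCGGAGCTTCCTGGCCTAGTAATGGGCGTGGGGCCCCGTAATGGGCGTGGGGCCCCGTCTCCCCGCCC
Id2: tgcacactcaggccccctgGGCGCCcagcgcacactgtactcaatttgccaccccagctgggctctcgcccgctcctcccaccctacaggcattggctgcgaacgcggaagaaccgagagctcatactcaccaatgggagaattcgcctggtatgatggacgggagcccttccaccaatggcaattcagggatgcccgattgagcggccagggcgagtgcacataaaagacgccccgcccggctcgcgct

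The Id2 match is GGCGCC, a GC-rich SMAD element described for BMP response, with its first base at position -231 from the start site. The upstream sequences of Id3, Tdgf1 and Nodal held no match to it on either strand, and none of the 4 held AATCCACA (bound by FOXH1), GTCTAGAC (a palindromic SMAD element), CAGACA (a shorter SMAD element) or the forkhead motifs TGTTTAC and TGTTTGC. Among 21263 promoter windows of the same length, 12.3% held GGCGCC, 15.2% CAGACA, 3.93% TGTTTGC, 2.62% TGTTTAC, 0.663% AATCCACA and 0.183% GTCTAGAC. The GC content was 62.8% for Id3 and Id2, 53.2% for Nodal and 42% for Tdgf1, against a median of 55.6%. The CpG dinucleotide occurred 18 times in the windows of Id3 and Id2, 7 times in that of Tdgf1 and 3 times in that of Nodal, against a median of 10.

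Nodal, the ligand, carried more H2BK120ac in TD and TT than in ED and ET, and held the highest level of the 10 genes in both TD and TT. Its mean coverage over 6 regions was 0.570 in ED and 1.19 in ET, compared with 3.55 in TD and 4.17 in TT. Both T-first groups lay above both E-first groups, and TD and TT differed from each other by a log2 fold of 0.21 (-0.30 to 0.72). The log2 fold was 2.03 (1.25 to 2.71) for TD against ED and 1.52 (0.86 to 2.18) for TT against ET. Among the 17686 genes with a region, Nodal stood at percentile 79.7 in ED and 96.4 in ET, and at 99.1 in TD and 99.6 in TT. Between ET and ED the log2 fold was 0.71 (-0.18 to 1.52), an interval that includes no difference. H3K27ac coverage of Nodal was 2.76 in EtOH and 3.49 in 4HT, percentiles 99.2 and 99, with a log2 fold of 0.32 (-0.07 to 0.71) that turned to -0.06 when the columns were quantile normalized.

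The strongest Nodal region in either mark was distal, chr10:61415761-61416658, whose centre lay 1763 bp upstream of the start site. Its H2BK120ac was 2.28 in ED and 3.98 in ET, against 8.16 in TD and 7.79 in TT, and its H3K27ac was 9.06 in EtOH and 12.0 in 4HT. This element was high in all 6 columns, at percentile 98.2 or above among regions. Its ratio was 3.57 (1.31 to 12.0) for TD against ED, 1.96 (0.841 to 4.94) for TT against ET and 1.32 (0.899 to 1.95) for 4HT against EtOH. The upstream element was thus marked in ED and ET too, where the 2 regions just inside the gene held little coverage.

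The region nearest the Nodal start site, chr10:61418125-61418311, centred 246 bp downstream of it, had 0.558 in ED and 1.28 in ET, compared with 4.14 in TD and 7.63 in TT. The next region, chr10:61418622-61418823, centred 751 bp downstream, had 0.242 in ED and 0.463 in ET, against 6.12 in TD and 4.96 in TT. In ED and ET these regions held between 0.545 and 2.88 fragments, and in TD and TT between 10.1 and 18.4. The ratios for the first were 7.42 (1.22 to 172) for TD against ED and 5.94 (1.71 to 32.8) for TT against ET, and for the second 25.2 (2.50 to 15712) and 10.7 (1.62 to 406). All of these intervals lay above 1 and are wide because the lower group held so few fragments. H3K27ac at the same regions was 3.36 and 1.61 in EtOH and 4.61 and 2.08 in 4HT, so the gene's 5′ end carried H3K27ac in both conditions. A small distal region 9718 bp upstream, chr10:61408193-61408316, had no H2BK120ac coverage in ED and 0.445 in ET, compared with 1.72 in TD and 2.72 in TT.

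Tdgf1, the co-receptor, carried H2BK120ac of 0.838 in ED and 0.570 in ET, against 1.64 in TD and 1.23 in TT over 4 regions. The T-first groups lay above the E-first groups, but the log2 folds of 0.72 (-0.27 to 1.66) for TD against ED and 0.75 (-0.34 to 1.71) for TT against ET were under 2-fold, with intervals that include no difference. The latter was -0.17 when every region within 50 kb was counted for Tdgf1. H3K27ac was 2.22 in EtOH and 3.93 in 4HT, a log2 fold of 0.77 (0.28 to 1.26) and the only member gene interval in that comparison that excluded no difference. It fell short of 2-fold, and was 0.36 after quantile normalization. In H3K27ac Nodal and Tdgf1 were the highest members, Nodal in EtOH and Tdgf1 in 4HT, without differing from each other beyond counting error in either.

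Within Tdgf1, the 2 proximal regions differed more between groups than the distal one. The region over the start site, chr9:110946083-110946259, whose upstream bases are the capitals of the Tdgf1 sequence, had no H2BK120ac coverage in ED and 0.111 in ET, compared with 1.64 in TD and 0.580 in TT. The next region, chr9:110946515-110947011, centred 605 bp upstream, had 1.13 in ED and 0.631 in ET, against 2.62 in TD and 2.67 in TT. The widest, chr9:110947078-110948319, centred 1541 bp upstream, had 2.22 in ED and 1.54 in ET, compared with 2.32 in TD and 1.67 in TT. H2BK120ac in this upstream region was therefore about as high in ED as in TD, and no interval on an H2BK120ac ratio at any Tdgf1 region excluded 1. H3K27ac was higher at each step away from the start site, from 0.165 in EtOH and 0.969 in 4HT over it, through 2.58 and 5.94, to 6.14 and 8.83 in the widest region. The fourth Tdgf1 region, 7842 bp downstream of the start site, had no coverage in any of the 6 columns.

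**Figure D1:**
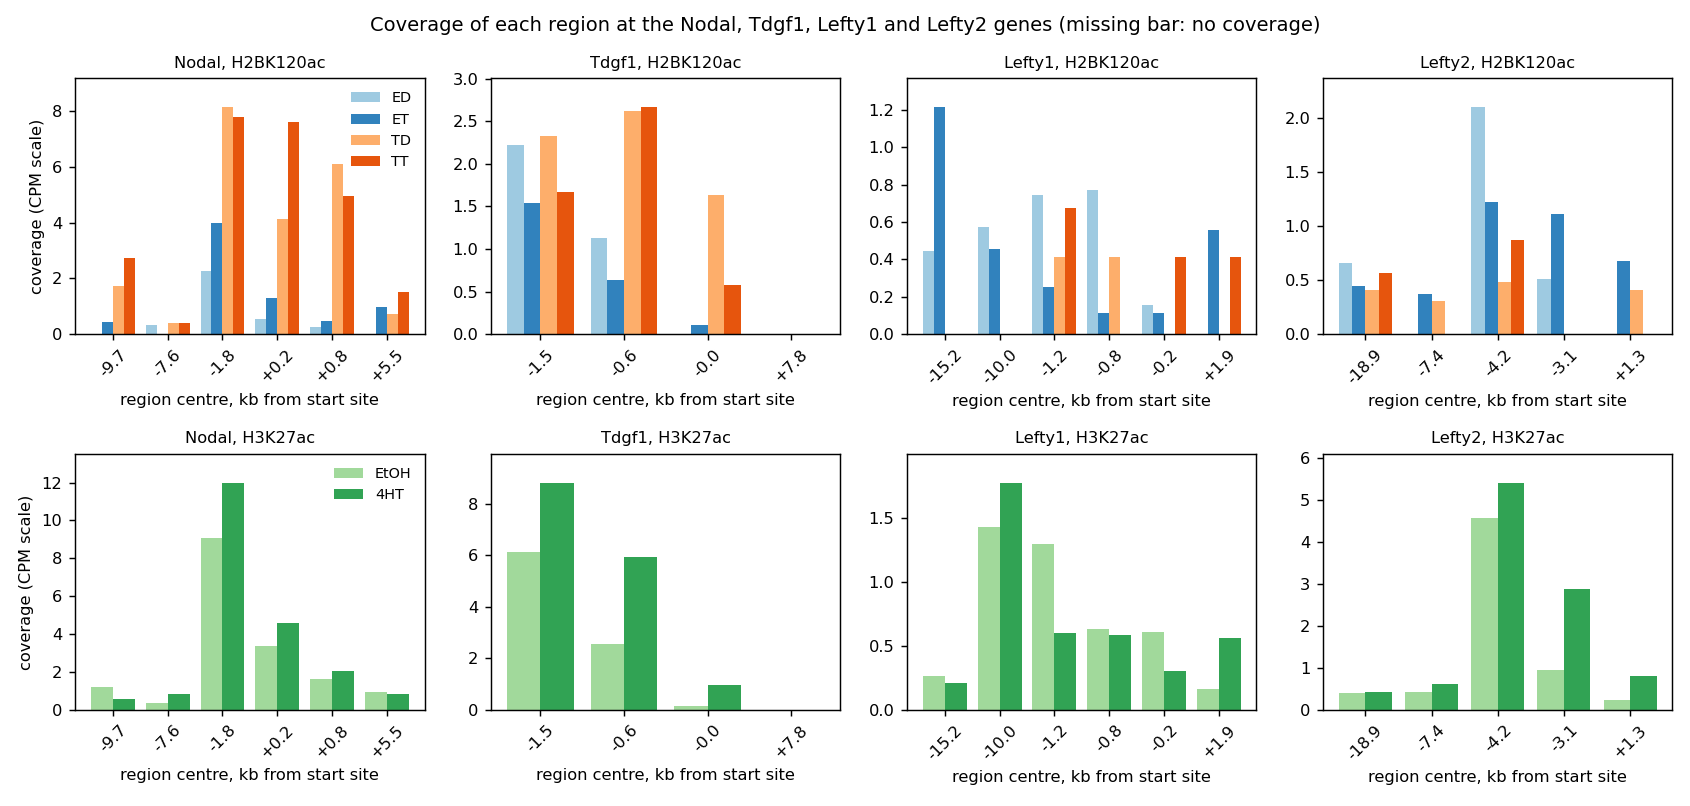
Coverage of each region of Nodal, Tdgf1, Lefty1 and Lefty2 on the CPM scale (vertical axis), for H2BK120ac in ED, ET, TD and TT (upper row) and H3K27ac in EtOH and 4HT (lower row), by the distance of the region's centre from the start site in kb. Bars are single merged values: the TD and TT bars of the 2 regions just downstream of the Nodal start site reach 4.14 to 7.63 against 0.242 to 1.28 in ED and ET, while at Lefty2 the tallest H2BK120ac bar, 2.10, is that of ED.

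The antagonists Lefty1 and Lefty2, which block Nodal signalling and whose start sites lie 41914 bp apart on chromosome 1, were the only members whose H2BK120ac level was lower in both TD and TT than in both ED and ET, as was that of 27.2% of all genes. Lefty1 had 0.447 in ED and 0.450 in ET, against 0.137 in TD and 0.25 in TT over 6 regions, and Lefty2 had 0.654, 0.765, 0.322 and 0.288 in the same order over 5. These levels rest on 2 to 8.58 fragments a gene and column. The log2 folds for TD against ED were -0.66 (-1.23 to 0.32) for Lefty1 and -0.54 (-1.39 to 0.50) for Lefty2, and for TT against ET -0.39 (-1.16 to 0.56) and -0.76 (-1.55 to 0.30). None reached 2-fold and each interval includes no difference. Lefty2 passed 2-fold in TD against ED in 2 of the alternative settings, down to -1.09, and the proximal regions of Lefty1 alone gave 0.25 for TT against ET.

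The H3K27ac signal of Lefty2 was concentrated upstream of the gene. The region chr1:180888280-180889544, centred 4196 bp upstream, had H3K27ac of 4.56 in EtOH and 5.41 in 4HT, and H2BK120ac of 2.10 in ED and 1.22 in ET, compared with 0.481 in TD and 0.873 in TT. The neighbouring chr1:180889885-180890088, centred 3122 bp upstream, had H3K27ac of 0.940 in EtOH and 2.88 in 4HT, a ratio of 3.06 (1.09 to 10). This region and the Tdgf1 region 605 bp upstream, with a ratio of 2.31 (1.20 to 4.58), were the 2 of 77 member regions with H3K27ac coverage whose interval lay above 1, where 0.602% of all such regions did, and none lay below, where 0.00725% did. H2BK120ac at the former was 0.509 in ED, 1.11 in ET and absent in TD and TT. Over all its regions, Lefty2 had H3K27ac of 1.31 in EtOH and 2.03 in 4HT, a log2 fold of 0.56 (-0.01 to 1.12). Lefty2 had no proximal region.

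At Lefty1, H3K27ac was 0.731 in EtOH and 0.673 in 4HT. Its strongest region, chr1:180924618-180925480, centred 9973 bp upstream and so closer to the Lefty1 than to the Lefty2 start site, had H3K27ac of 1.42 in EtOH and 1.77 in 4HT. H2BK120ac in it was 0.572 in ED and 0.454 in ET, with no coverage in TD or TT. The region of highest mean H2BK120ac, chr1:180933734-180934004, centred 1153 bp upstream, had 0.744 in ED and 0.251 in ET, against 0.412 in TD and 0.673 in TT, with no separation of the groups. The proximal region nearest the Lefty1 start site, chr1:180934561-180935106, had no more than 1 fragment of H2BK120ac in any column.

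Smad7, which encodes an inhibitory SMAD that blocks the receptors, had 18 regions on chromosome 18 and differed little between groups. Its H2BK120ac was 0.550 in ED and 0.421 in ET, compared with 0.649 in TD and 0.681 in TT, and its H3K27ac 0.585 in EtOH and 0.783 in 4HT. The proximal region, chr18:75366440-75367753, had 1.14 in ED and 0.837 in ET, against 2.89 in TD and 1.83 in TT. Its log2 fold was 1.10 for TD against ED and 0.85 for TT against ET, against 0.14 and 0.40 for the whole gene. Its ratios in these comparisons were 2.54 (0.543 to 18.1) and 2.18 (0.323 to 25.9), with intervals that include 1. The strongest distal H3K27ac region by the mean of both conditions, chr18:75345109-75345380, 22121 bp upstream, had 1.55 in EtOH and 2.54 in 4HT and no H2BK120ac coverage in TD or TT. Close to it, chr18:75344412-75344552 had H3K27ac of 1.5 in EtOH and 0.565 in 4HT, the only well-covered member region at least 2-fold lower in 4HT.

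Skil, which encodes the SMAD co-repressor SnoN, had H2BK120ac of 0.470 in ED and 0.268 in ET, compared with 0.638 in TD and 0.980 in TT over 7 regions. Its log2 fold was 1.05 (0.17 to 1.69) for TT against ET, past 2-fold, and 0.25 (-0.59 to 1.05) for TD against ED, or -0.11 with proximal regions left out. The region inside the gene, chr3:31095390-31095888, centred 581 bp downstream of the start site, had no coverage in ED and 0.532 in ET, against 1.54 in TD and 2.68 in TT. The wider region across the start site, chr3:31094112-31095293, had 0.632, 0.483, 0.613 and 0.755 in the same order and so hardly differed between groups. Of all Skil regions the former also had the most H3K27ac, 1.74 in EtOH and 1.26 in 4HT.

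Bambi, which encodes a pseudoreceptor that lacks a kinase domain, was the only member with opposite directions in the comparisons by first letter. Its H2BK120ac was 0.905 in ED and 1.02 in ET, compared with 1.26 in TD and 0.596 in TT over 8 regions, so that TD was the highest group and TT the lowest. The log2 fold was 0.35 (-0.35 to 1.03) for TD against ED, -0.51 (-1.22 to 0.24) for TT against ET, and -0.74 (-1.41 to -0.01) for TT against TD. With its proximal region alone the TT against ET value was 0.36. The widest gap between groups lay in 1 distal region, chr18:3490655-3490961, centred 16203 bp upstream, with 1.03 in ED and 2.53 in ET, against 4.77 in TD and 0.802 in TT. Its ratio was 4.64 (1.10 to 34.9) for TD against ED, 0.317 (0.0294 to 1.85) for TT against ET and 0.168 (0.0173 to 0.773) for TT against TD. The adjacent chr18:3490128-3490552 had 1.71 in ED and 1.62 in ET, compared with 3.90 in TD and 2.59 in TT and had the most H3K27ac of the gene, 2.66 in EtOH and 1.85 in 4HT. Here both T-first groups lay above both E-first groups. A further distal region, chr18:3481214-3481613, had 1.74 in ED and 1.58 in ET and no coverage in TD or TT. With 3.92 and 3.54 fragments behind the ED and ET values, the intervals on its ratios, up to 1.45 for TD against ED and 1.71 for TT against ET, include 1. Over the proximal Bambi region, chr18:3506956-3508414, the 4 groups lay between 0.658 and 1.01. Its H3K27ac was 0.654 in EtOH and 0.800 in 4HT, whereas the gene as a whole had 0.682 and 0.548.

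Of the BMP targets, Id1 carried little H2BK120ac in ED and ET and about as much as Id3 in TD. Its level was 0.107 in ED and 0.246 in ET, against 1.05 in TD and 0.879 in TT over 6 regions, which put it at percentiles 15.2 and 34.3 of genes in ED and ET and at 89.6 and 86.5 in TD and TT. The log2 fold was 1.52 (0.55 to 1.93) for TD against ED and 0.99 (0.02 to 1.66) for TT against ET, just short of 2-fold. These folds rest on 1.44 fragments in ED and 3.31 in ET, and the TD against ED value was 0.25 when every region within 50 kb was counted for Id1, whichever gene was nearest. The region across the start site, chr2:152736115-152736313, had 0.222 in ED and no coverage in ET, compared with 2.03 in TD and 1.23 in TT. The region 1168 bp upstream, chr2:152734871-152735295, had no coverage in ED and 0.223 in ET, against 1.29 in TD and 1.89 in TT. Both regions had H2BK120ac almost only in TD and TT, yet at no more than 4.92 fragments, and every interval on their ratios includes 1. H3K27ac of Id1 was 0.318 in EtOH and 0.252 in 4HT, and at the start site 0.295 in EtOH with none in 4HT, which is under 2 fragments. The strongest H3K27ac region of Id1, chr2:152726705-152727388, 9205 bp upstream, had 0.683 in EtOH and 0.438 in 4HT.

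Id2 had its H2BK120ac spread over 14 regions, with 0.315 in ED and 0.650 in ET, compared with 0.572 in TD and 1.04 in TT. TT was the highest group and ED the lowest, and ET and TD lay close together, so the first letter alone did not separate the groups. The log2 fold was 0.44 (-0.17 to 0.98) for TD against ED, 0.45 (-0.10 to 0.99) for TT against ET, 0.55 (-0.06 to 1.10) for ET against ED and 0.57 (0.02 to 1.09) for TT against TD. The region over the upstream sequence printed above, chr12:25096048-25096498, had 0.833 in ED and 0.422 in ET, against 0.754 in TD and 1.52 in TT. Distal regions differed more. The region 3373 bp upstream, chr12:25099367-25099562, had no coverage in ED or ET, against 0.862 in TD and 2.72 in TT. The interval on its TT against ET ratio began at 1.23. The region 2724 bp upstream, chr12:25098588-25099043, had no coverage in ED and 0.445 in ET, compared with 1.70 in TD and 2.42 in TT. By the mean of the 4 groups the strongest H2BK120ac region of Id2 was chr12:25144524-25145358, 48849 bp upstream, with 0.637 in ED and 3.14 in ET, against 1.25 in TD and 2.68 in TT, so that the groups ending in T were the higher ones. Its H3K27ac was 0.438 in EtOH and 0.621 in 4HT. Id2 had the lowest H3K27ac of the 10 genes in EtOH, 0.188, and 0.266 in 4HT.

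Id3 had similar H2BK120ac in the 4 groups, 0.921 in ED and 0.808 in ET, compared with 1.08 in TD and 1.09 in TT. Its regions ordered the groups differently. The region across the start site, chr4:136143639-136143850, whose upstream bases are the capitals of the Id3 sequence, had 0.512 in ED and 0.723 in ET, against 2.42 in TD and 1.66 in TT, a log2 fold of 1.63 for TD against ED and 0.87 for TT against ET. The region 3072 bp downstream, chr4:136146633-136147154, had 1.92 in ED and 1.15 in ET, compared with 0.965 in TD and 0.728 in TT. The region beyond it, chr4:136147726-136148114, had 0.955 to 1.02 in ED, ET and TD, with TT the highest at 1.78. The region across the start site held 1.15 to 5.89 fragments a group and the one 3072 bp downstream 1.76 to 4.32. No interval on an H2BK120ac ratio at any Id3 region excluded 1. The 4 distal regions together had 1.02 in ED and 0.829 in ET, against 0.738 in TD and 0.951 in TT. With proximal regions left out, the log2 fold of Id3 for TD against ED was -0.32, against 0.16 with all regions. H3K27ac of Id3 was 0.469 in EtOH and 0.610 in 4HT, and at the start site 0.639 and 1.16.

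**Figure D2:**
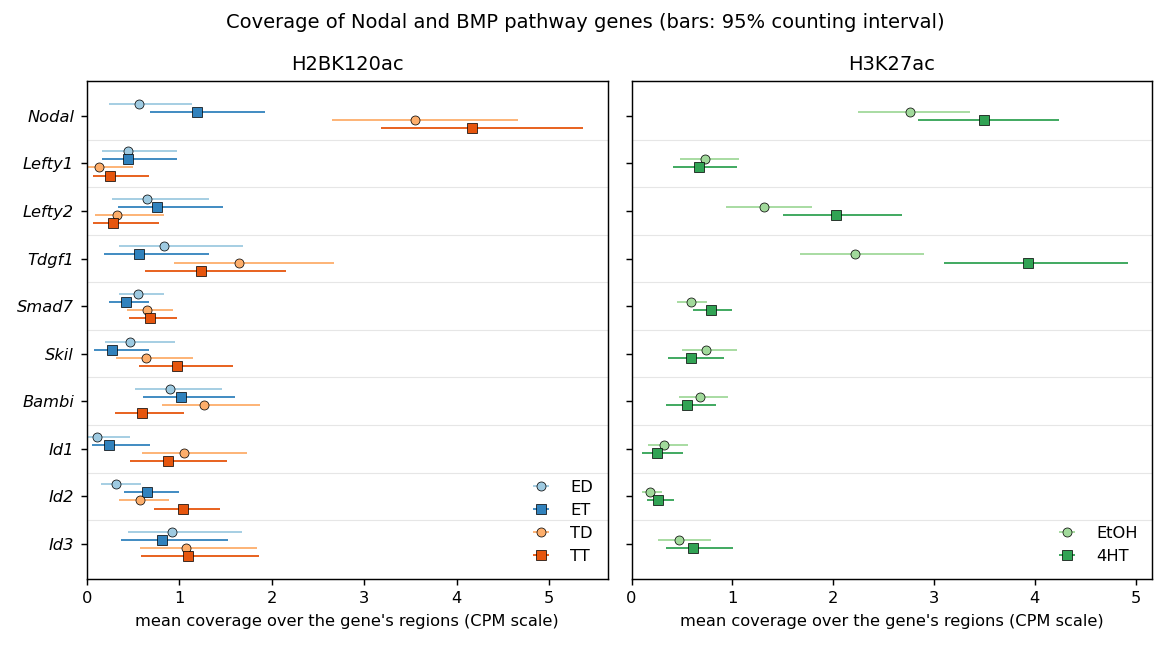
Mean coverage over each gene's regions on the CPM scale (horizontal axis) for the 10 genes, H2BK120ac on the left and H3K27ac on the right, with bars for the 95% counting interval of each merged value. Nodal is the only gene whose TD and TT intervals lie clear of those of ED and ET, and Nodal, Tdgf1 and Lefty2 have the highest H3K27ac.

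A gene's level is an unweighted mean over regions of differing width, so orders between genes are approximate. Ranked by level, the 10 members were close together in ED, from 0.107 for Id1 to 0.921 for Id3. No 2 neighbours in that order, or in the order of ET, differed beyond counting error. In TD and TT Nodal came first and differed from Tdgf1, the next, by a ratio with an interval of 1.21 to 4.05 in TD and 1.80 to 6.94 in TT, and no other neighbours differed. In H3K27ac EtOH the steps from Tdgf1 to Lefty2 and from Lefty2 to Skil exceeded counting error, and in 4HT those from Nodal to Lefty2, from Lefty2 to Smad7 and from Bambi to Id2. The 3 genes Nodal, Tdgf1 and Lefty2 were thus the top of the H3K27ac order in both conditions, and the Id genes lay in its lower part, with Id1 and Id2 at the bottom.

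Profiles over the 6 columns were compared by Euclidean distance of log2(value + pseudocount). The closest pair was Smad7 and Skil at 0.62, followed by Bambi and Id3 at 0.77 and Id1 and Id2 at 1.13. The profile nearest to Lefty1 was Smad7 at 1.26, that nearest to Lefty2 was Lefty1 at 1.68, and Nodal and Tdgf1 were nearest to each other at 1.96. The most distant pair was Nodal and Id2 at 4.99. Each column merges the replicates of its own group, so these distances describe the 6 merged values only.

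Set against all genes, 2 of the 10 members were at least 2-fold higher in TD than in ED (Nodal and Id1), where 10.1% of genes were, and none was at least 2-fold lower, where 5.84% were. In TT against ET 2 members were higher (Nodal and Skil) beside 9.31% of genes, and none lower beside 6.15%. The median member log2 fold was 0.30 and 0.43 in these comparisons, against 0 and 0 for all genes. In ET against ED no member was called higher or lower, where 3.90% and 3.65% of genes were, and in TT against TD none was, where 3.21% and 2.87% were. By level, 6 members lay higher in both TD and TT than in both ED and ET (Nodal, Tdgf1, Smad7, Skil, Id1 and Id3), where 25% of genes did, and 2 lay lower (Lefty1 and Lefty2), where 27.2% did. The gene counts were thus small beside a broad background.

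**Figure D3:**
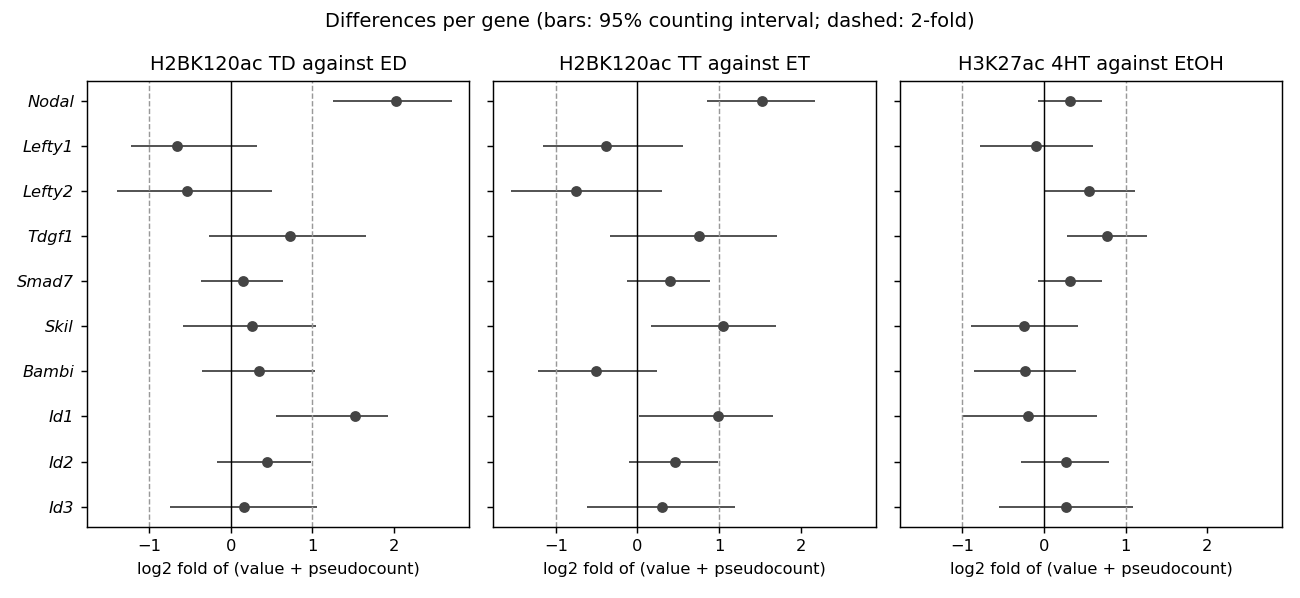
Log2 fold of (value + pseudocount) per gene (horizontal axis) for H2BK120ac TD against ED and TT against ET and for H3K27ac 4HT against EtOH, with bars for the 95% counting interval and dashed lines at 2-fold. Nodal lies at 2.03 and 1.52 in the H2BK120ac comparisons and at 0.32 in H3K27ac, where no gene passes 2-fold and Tdgf1 is highest at 0.77.

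The folds between T-first and E-first groups were larger at proximal regions. With these alone, which 9 members had, 6 were at least 2-fold higher in TD than in ED (Nodal 2.79, Id1 1.96, Id3 1.63, Tdgf1 1.39, Smad7 1.10 and Skil 1.04 on the log2 scale), where 20.2% of 12601 genes were, and none was lower, where 10.3% were. In TT against ET 5 were higher (Nodal 2.39, Id1 2.02, Tdgf1 1.39, Id2 1.22 and Skil 1.22), where 19.6% were, and none was lower, where 9.46% were. The Id1 values rest on 2.96 to 4.92 fragments in the higher group and at most 0.5 in the lower. Others were thin too, such as Id2 with 3.67 in TT and 0.948 in ET, and Id3 with 5.89 in TD and 1.15 in ED. Outside Nodal, no proximal member region had an H2BK120ac ratio whose interval excluded 1 in either comparison. The median over the 9 members was 1.10 and 1.22, against 0.04 and 0.09 for all genes. Bambi and Lefty1 stayed under 2-fold in both, and Id2 in TD against ED at -0.10. No member passed 2-fold over proximal regions in ET against ED, where 9.88% of genes were higher and 10.2% lower, or in TT against TD, where 8.69% and 8.27% were.

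Counted by region, 9 of the 13 proximal member regions lay higher in both TD and TT than in both ED and ET, where 28.2% of all proximal regions did, and none lay lower, where 15.5% did. Their mean H2BK120ac was 0.533 in ED and 0.490 in ET, against 2.01 in TD and 2.07 in TT, against 0.430, 0.438, 0.716 and 0.695 for all 15882 proximal regions. The means are raised by the 2 Nodal regions, the highest in TD and TT. The medians were 0.558, 0.483, 1.64 and 1.52, against 0.445, 0.445, 0.412 and 0.415. In each column the latter is about the value of 1 fragment, so its differences between columns are not changes in the mark. Over the 66 distal member regions the means were 0.544, 0.633, 0.759 and 0.836, against 0.428, 0.456, 0.455 and 0.440 for all distal regions within 50 kb. The distal medians were 0.445, 0.445, 0.412 and 0.478, against 0.445, 0.445, 0.206 and 0.311. Of these, 0.445 and 0.412 are again the value of 1 fragment. Of all 79 member regions 26 lay higher in TD and TT, where 15.6% of regions did, and 16 lay lower, where 21.7% did. No coverage in TD and TT was found in 11 of the 79 member regions, where 26.8% of regions had none, and no coverage in ED and ET in 6, where 19.8% had none. The members' regions were slightly wider than most, with a median of 285 bp against 252 bp.

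**Figure D4:**
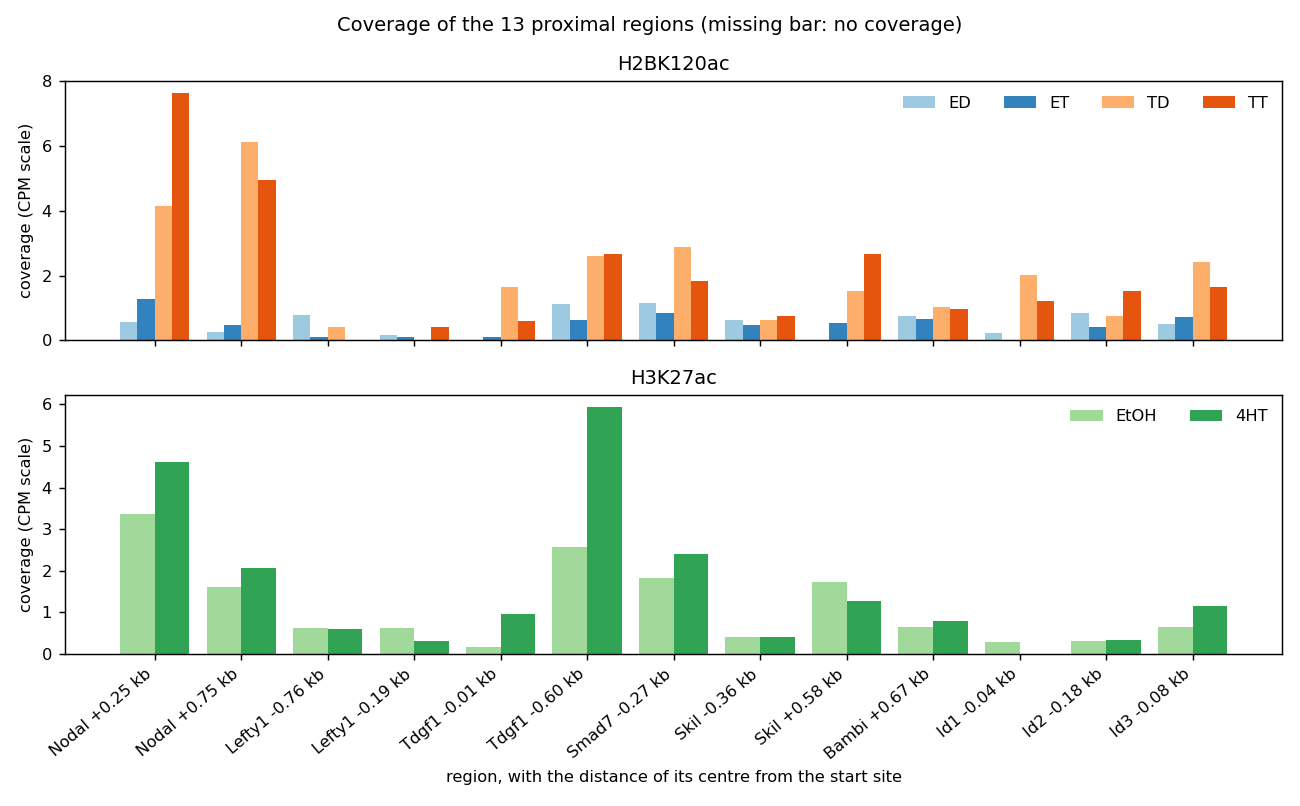
Coverage of the 13 proximal regions of 9 member genes on the CPM scale (vertical axis), H2BK120ac above and H3K27ac below, each region labelled with its gene and the distance of its centre from the start site. The Nodal regions are the tallest in TD and TT at 4.14 to 7.63, and in H3K27ac the Tdgf1 region 605 bp upstream stands out with 5.94 in 4HT against 2.58 in EtOH.

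Few member regions were deep enough to compare singly. Only 5 had a mean of at least 5 H2BK120ac fragments over the 4 groups, 3 of Nodal and 2 of Bambi. All 5 were at least 2-fold higher in TD than in ED, where 56.7% of 2816 such regions were, none lower where 17.1% were, but this count carries no support. A region could reach that mean through TD and TT alone, as the 2 Nodal regions inside the gene did, so that its direction was partly fixed by the filter. In TT against ET 2 were higher (the Nodal regions inside the gene) beside 51.1%, and 1 was lower (Bambi) beside 20.1%. In ET against ED 1 was higher beside 10.4% and none lower beside 3.94%, and in TT against TD none was higher beside 2.38% and 1 lower beside 5.61%. Among member regions with coverage, intervals on the ratio lay above 1 in 4 of 74 for TD against ED (the 3 Nodal regions and the Bambi region 16203 bp upstream), where 2.11% of regions did, and in 3 of 77 for TT against ET (the 2 Nodal regions inside the gene and the Id2 region 3373 bp upstream), where 1.54% did. No member interval lay below 1 in either, where 0.283% and 0.390% of regions did. In ET against ED no interval excluded 1, where 0.0226% of regions lay above and 0.00645% below, and in TT against TD none lay above, where 0.0177% did, and 1 (the same Bambi region) lay below, where 0.0565% did.

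In H3K27ac no member gene changed by 2-fold after 4HT, where 2.43% of genes were higher and 1.32% lower, and the member median was 0.27 against 0.08 for all genes. With proximal regions alone 1 gene was higher (Tdgf1, 1.22), where 4.83% were, and 1 lower, where 3.51% were, the latter being Id1 from under 2 fragments to none. Of 16 well-covered member regions 2 were higher (at Tdgf1 and Lefty2) beside 7.00% of 13815 regions, and 1 was lower (at Smad7) beside 0.898%. These splits depended on the scaling: 64.7% of the calls over all genes were higher as deposited, 29.0% when the columns were scaled to 1 median and 33.1% when quantile normalized, the median over all genes going from 0.08 to -0.03 in both. The member median was then 0.11 and 0.03, with Nodal alone among the members changing sign. Against their H2BK120ac in ED, the H3K27ac of the 79 regions in EtOH had a Spearman's rho of 0.47 across regions, and 0.42 against TD, compared with 0.49 and 0.49 over 77376 regions. Without the 6 Nodal regions rho was 0.53 for ED and 0.33 for TD. Regions within a column come from the same merged libraries and are not replicates.

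Of 56 other genes of the pathways, all measured over 368 regions, few passed 2-fold. On the Nodal side 2 of 31 were higher in TD than in ED and none lower, and 3 were higher and 2 lower in TT than in ET. On the BMP side 1 of 25 was higher in each of these comparisons and none lower. Over all genes 10.1% were higher and 5.84% lower in TD against ED, and 9.31% and 6.15% in TT against ET. Twsg1, a secreted modulator of BMP ligands, had H2BK120ac of 0.373 in ED and 0.234 in ET, compared with 1.61 in TD and 1.61 in TT. Gdf3, a ligand related to Nodal, had 1.22 in ED and 0.976 in ET, against 3.69 in TD and 3.25 in TT. These 2 genes were the only ones of the list called higher in both comparisons, at log2 folds of 1.38 and 1.66 for Twsg1 and 1.34 and 1.41 for Gdf3. Smurf2, a ubiquitin ligase of the pathway, had a log2 fold of 1.19 (-0.47 to 2.25) for TD against ED (0.360 in ED, 1.34 in TD) and 0.90 for TT against ET. The receptor Tgfbr1 had 1.40 (0.12 to 1.69) for TT against ET (0.0649 in ET, 0.830 in TT) and 0.96 for TD against ED. The SMAD inhibitor Pmepa1 had 1.30 (0.74 to 1.82) for TT against ET (0.816 in ET, 2.58 in TT) and 0.98 (0.38 to 1.54) for TD against ED. The difference between comparisons was not tested. The called lower genes were the co-receptor Cfc1, with 0.879 in ET and no coverage in TT, and the receptor Acvr1c, with 0.494 in ET, or 2.22 fragments, and no coverage in TT, which was named after its values were seen. No gene of the list was called in ET against ED, where 3.90% of all genes were higher and 3.65% lower. None was called in TT against TD, where 3.21% and 2.87% were. In H3K27ac, where 2.43% of genes were higher, the only call was Foxh1, the DNA-binding partner of SMAD2 and SMAD3, with 0.374 in EtOH and 1.15 in 4HT, a log2 fold of 1.24 (-0.05 to 2.37). List medians were 0.13 and -0.15 on the Nodal side and -0.03 and -0.09 on the BMP side for TD against ED and TT against ET, beside 0 and 0 for all genes.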

How the data were processed

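CUT&Tag coverage of H2BK120ac and H3K27ac was read from 2 deposited tables of 127646 regions. Their values are coverage signal on a CPM scale and merged over replicates by the authors, per the file headers and table names. Per the submitters' processing notes the build was mm10, and featureCounts and DESeq2, with no role stated, belong to the H3K27ac samples. The aligner and coverage tool were not given in the sources used here. Another 16 value columns, named with IgG, were left out because they matched none of the samples, and background was not examined. No deposited value is 0 and regions without coverage are empty, so means over sparsely covered regions are raised.

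Members and lists were chosen with earlier results of these data known. Planned tests needed separate replicates and were not run. Start sites were placed for 21490 of 21900 protein-coding genes: 17492 by the strand of RefSeq on GRCm38.p6 and 3998 by 38087 deposited 5 kb windows. A missing value counted as 0. As pseudocount, the 25th percentile of a table's positive values was rounded to 1 digit. Well covered means a mean of at least 5 fragments. The named regions of a member are the proximal one nearest the start site and those of highest mean H2BK120ac and H3K27ac, plus regions chosen after their values were seen. Other pathway genes are named where they passed 2-fold with at least 5 fragments in the higher group, at most 6 a direction. The calculation was tested on simulated data, with changes planted only in genes of higher pile-up and scored at a cut below 2-fold. It does not show how well changes are found in genes with few fragments, such as Id1. Python 3.11.15, numpy 2.4.6, pandas 2.3.3, scipy 1.17.1 and matplotlib 3.10.9 were used. The alternatives varied pseudocount, scaling, region filter, distance (20 kb), weighting and region class. Counting all regions within 50 kb, and start sites from windows alone, were added after the data had been seen.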

Additional observations from a re-analysis of the deposited data

How the results depend on the processing

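Nodal was at least 2-fold higher in all 12 settings, at log2 folds of 1.34 to 2.79 for TD against ED and 1 to 2.39 for TT against ET. Id1 passed in 11 of 12 for TD against ED (0.25 to 2.03) and in 4 of 12 for TT against ET, and Skil in 9 of 12 for TT against ET (0.74 to 1.33). The member count higher in TT against ET was 1 with double the pseudocount, where 3.57% of all genes were higher. It was also 1 with weighting by region width, beside 10.4% of genes, and with distal regions only, beside 8.15%. With proximal regions only it was 5, beside 19.6%. The count higher in TD against ED was 6 with proximal regions only, beside 20.2% of genes. It was 1, beside 6.79%, with every region within 50 kb, an alternative added after seeing the data. The count lower in TD against ED was 1, Lefty2, with kept regions only and with weighting by width, beside 8.10% and 6.51% of genes. For H3K27ac, proximal regions only gave 1 higher and 1 lower, beside 4.83% and 3.51% of genes. The well-covered regions higher in ET against ED numbered 2 with a minimum of 3 fragments. The share of all regions under that minimum is not given here. Proximal regions were held by 9 genes, and the causes of these shifts were not tested. Under every region within 50 kb the Tdgf1 log2 fold for TT against ET was -0.17.

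No paired analysis was possible because the replicates of each group are merged in 1 column, so the planned leaving out of single replicates was not run either. At 1 fragment per 0.165 to 0.445 of coverage, 0 to 4 member regions per comparison had a ratio whose counting interval excluded 1. These were out of 68 to 77 member regions with coverage. Depending on the comparison, the interval lay above 1 in 0.0177% to 2.11% of all such regions and below in 0.00645% to 0.390%.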
